A study of Mus musculus with 6 samples.

Results

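The *Uts2*-*Per3* locus on mouse chromosome 4 and the *Wee1* locus on chromosome 7 were followed through 5 genes, *Uts2*, *Per3*, *Camta1*, *Wee1* and *1600010M07Rik*, of the 52636 genes in the count table. They are *Uts2*, *Wee1* and genes that lie beside or overlap these by position. They were chosen with their counts in the same comparison of genotypes known, so their values are a description and carry no test. Of the 5 genes, 3 (*Uts2*, *Camta1* and *Wee1*) were among the 6831 genes that passed the filter on low counts, and *Per3* and *1600010M07Rik* were not.

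The molecular clock is a feedback loop in which the heterodimer of BMAL1 and CLOCK binds E-box sequences and activates, among others, the *Per* and *Cry* genes, whose products inhibit the heterodimer. PER3 is a period protein of this loop, and *Wee1*, which encodes a kinase that holds CDK1 inactive before mitosis, is a known output of the clock in other tissues. *Uts2* encodes the precursor of urotensin II, a cyclic vasoactive peptide, *Camta1* encodes a calmodulin-binding transcription activator, and *1600010M07Rik* is annotated as an antisense RNA.

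RNA-seq libraries were made from the tibialis anterior (TA) muscles of 6 male C57BL/6 mice, each library from a separate mouse. All mice carried floxed *Bmal1* and an inducible Cre driven by the human skeletal actin promoter (HSA-MCM), which acts in muscle fibers and not in the other cells of the muscle. At 12 to 16 weeks of age, 3 mice were injected for 5 days with tamoxifen at 2 mg per day (iMS*Bmal1*-/-, labelled HSA-MCM-Bmal1-/-) and 3 mice with vehicle, ethanol in sunflower seed oil (iMS*Bmal1*+/+, labelled HSA-MCM-Bmal1+/+). Muscles were taken 5 weeks after treatment. Loss of *Bmal1* and exposure to tamoxifen cannot be told apart between these groups. The comparison asks how the genes of both loci were counted on each strand in muscle with and without *Bmal1*.

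Reads counted on genes numbered 2091912, 1997203 and 2716079 per iMS*Bmal1*+/+ library, against 2403438, 1616290 and 2068657 per iMS*Bmal1*-/- library. The study states a read depth per sample many times larger, so most reads were not counted on genes. The reason was not tested. Counts are given below in the order of replicates 1, 2 and 3. A count of 0 allows up to 3 counts, which corresponds to between 1.10 and 1.86 CPM (a count scaled to the size of its library) in the 6 libraries. This floor, and the values summed over a group with their intervals below, are scaled to total counts. The other CPM values are scaled to TMM-normalized library sizes after the filter. The floor and the intervals cover counting error only. *Bmal1* itself (*Arntl* in the table, plus strand) had 5, 4 and 11 counts in iMS*Bmal1*+/+, against 13, 5 and 5 in iMS*Bmal1*-/- muscle. These counts overlap and did not pass the filter. *Gm45355*, which faces *Arntl* over 33 bp of exon on the minus strand, had 94, 71 and 109 counts in iMS*Bmal1*+/+, against 62, 42 and 93 in iMS*Bmal1*-/- muscle. They overlap too, with a log2 fold change of -0.36 (SE 0.21, Benjamini-Hochberg adjusted p = 0.544 in edgeR), so neither row checks the genotype labels here.

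What a count under a gene's name holds depends on how strand was treated. The library kit keeps the strand of the RNA, and the strand setting of the counting is not given in the sources used here. Muscle markers give a measure of this. *Ckm* (muscle creatine kinase) was at 224 CPM per kb of exon in iMS*Bmal1*+/+ muscle, whereas *A930016O22Rik*, whose exons face it on the opposite strand, was at 32226. *Ttn* (titin) was at 33.4 CPM per kb and its facing gene *Gm13938* at 92972. Of the 7 markers with a facing gene, 6 had less signal per kb than each facing gene of the count table in every library, and the exception was *Des* (desmin). Each value below is therefore the deposited count under the name of the gene, and which strand's RNA gave it was not tested. With the opposite setting, the counts under *Uts2*, *Wee1* and *Gm45819* would be RNA of the minus strand, and the RefSeq model of *Per3* lies opposite all of *Uts2*.

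In GENCODE annotation of the GRCm38 build (mm10), *Uts2* (ENSMUSG00000028963) occupies chr4:150997097-151001810 on the plus strand, with 4 exons of 538 bp in all. *Per3* (ENSMUSG00000028957) lies on the minus strand at chr4:151003652-151044665, so the genes converge tail to tail with 1841 bp between them. The RefSeq model of *Per3* is longer. It ends at 150997018, beyond the start of *Uts2*, so that all 4714 bp of *Uts2* lie opposite to it. *Camta1* (ENSMUSG00000014592, minus strand) extends over chr4:150917322-151861876. *Uts2* and *Per3* are within this span because of 1 of its 13 transcripts, whose last intron of 145342 bp holds both genes. The exons of *Camta1* overlap those of *Uts2* and *Per3* by 0 bp, and the RefSeq model of *Camta1* ends at 151059523 and reaches neither gene.

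On chromosome 7, *Wee1* (ENSMUSG00000031016) runs on the plus strand over chr7:110122046-110143286, with 11 exons of 3419 bp. *1600010M07Rik* (ENSMUSG00000101585) spans chr7:109998376-110151202 on the minus strand and covers *Wee1* by position. Here too the cover comes from 1 transcript of 4, in which *Wee1* lies inside an intron of 143912 bp, and the exons of the pair overlap by 0 bp. In RefSeq, *1600010M07Rik* is 8270 bp long, starts at 110006646 on the minus strand and does not cover *Wee1*. A plus-strand gene of a single exon, *Gm45819* (ENSMUSG00000109904, 1751 bp), stops 305 bp before the start of *Wee1* and is within the same intron.

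*Per3*, the clock gene of the chromosome 4 locus, had 2, 2 and 3 counts in iMS*Bmal1*+/+ libraries, against 0, 1 and 1 in iMS*Bmal1*-/- libraries. Both groups were at or under the floor of 3 counts in every library, and no fold change is given. Summed over a group, 7 counts corresponded to 1.03 CPM (95% exact Poisson interval 0.414 to 2.12) and 2 counts to 0.329 CPM (0.0398 to 1.19). Every iMS*Bmal1*+/+ library was above every iMS*Bmal1*-/- library in CPM, but the intervals overlap, and at so few counts no difference in *Per3* is read from them.

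*Uts2*, on the opposite strand, had 23, 20 and 28 counts in iMS*Bmal1*+/+, against 5, 4 and 1 in iMS*Bmal1*-/- muscle. The 3 iMS*Bmal1*+/+ libraries all lay above the 3 iMS*Bmal1*-/- libraries. The mean level was 10.8 ± 0.575 CPM in iMS*Bmal1*+/+ muscle, compared with 1.68 ± 1.05 CPM in iMS*Bmal1*-/- muscle (SD, n = 3 each). The fitted log2 fold change was -2.66 (SE 0.47), a level 6.34-fold lower. iMS*Bmal1*-/- replicate 3, with its single count, was the lowest library and had 0.477 CPM, below its floor. In pulverized whole muscle, fewer cells that make an RNA and less of it per cell cannot be told apart. Of the 6831 genes tested, 577 (8.45%) had every iMS*Bmal1*-/- library below every iMS*Bmal1*+/+ library in CPM, and 125 (1.83%) were past an adjusted p of 0.05, 73 of them (1.07%) lower and 52 (0.761%) higher in iMS*Bmal1*-/- muscle. DESeq2 called 1.71% of them and limma 1.79%, and 11.9% had an unadjusted p under 0.05 in edgeR. Because the members were chosen on this comparison, nothing is read from their count against these shares.

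*Camta1*, which surrounds both genes, had 24, 20 and 29 counts in iMS*Bmal1*+/+ libraries, against 27, 18 and 22 in iMS*Bmal1*-/- libraries. Here the genotypes overlapped, at 11.09 ± 0.808 and 11.01 ± 0.658 CPM (SD, n = 3 each). Its log2 fold change was -0.01 (SE 0.29). The count of *Uts2* as a share of *Uts2* and *Camta1* together was 48.9, 50 and 49.1% in iMS*Bmal1*+/+ libraries and 15.6, 18.2 and 4.35% in iMS*Bmal1*-/- libraries. Of the counts on *Uts2* and *Per3* together, *Uts2* held 92.0, 90.9 and 90.3% in iMS*Bmal1*+/+ muscle and 100, 80 and 50% in iMS*Bmal1*-/- muscle. The last of these rests on 1 count for each gene.

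**Figure D1:**
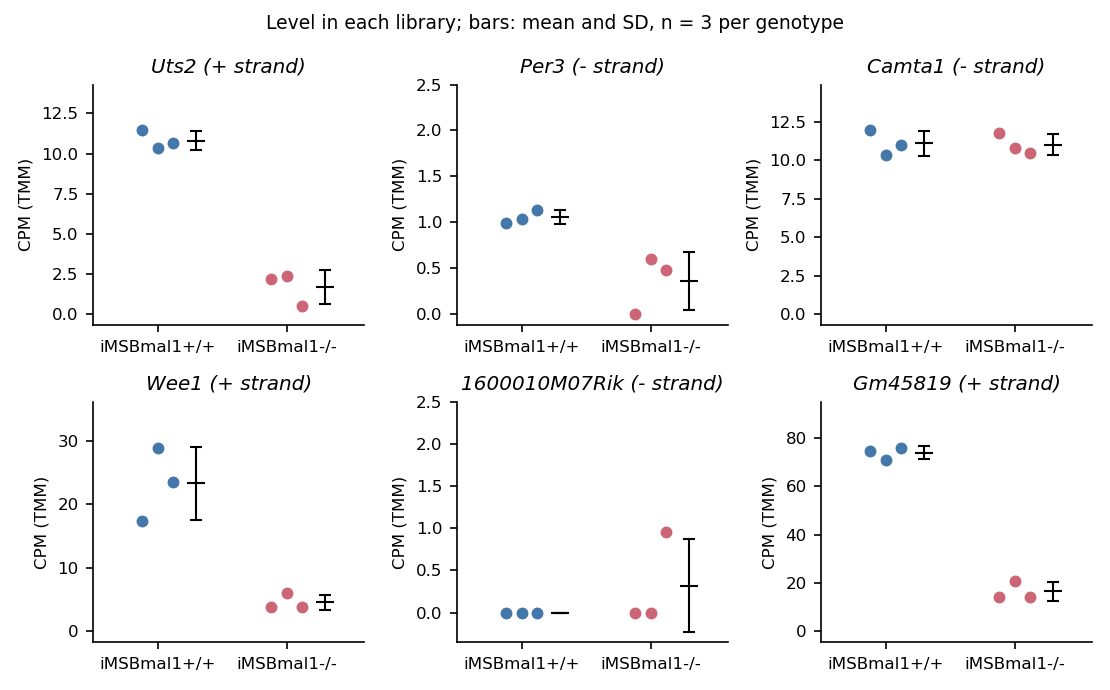
Level in each library (CPM after TMM normalization, linear axes) of the 5 members and of *Gm45819*, with points for mice and bars for the mean and SD of 3 libraries per genotype. *Uts2*, *Wee1* and *Gm45819* are lower in every iMS*Bmal1*-/- library, *Camta1* overlaps, and *Per3* and *1600010M07Rik* stay near 0.

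*Wee1* had 35, 56 and 62 counts in iMS*Bmal1*+/+, against 9, 10 and 8 in iMS*Bmal1*-/- muscle. No iMS*Bmal1*-/- library reached the lowest iMS*Bmal1*+/+ library, replicate 1, and replicates 2 and 3 were higher still. In CPM this was 23.3 ± 5.76 in iMS*Bmal1*+/+ and 4.57 ± 1.23 in iMS*Bmal1*-/- muscle (SD, n = 3 each). The log2 fold change was -2.36 (SE 0.32), or 5.14-fold lower. The gene annotated on the opposite strand was almost without counts. *1600010M07Rik* had 0 counts in 5 of the 6 libraries, all 3 iMS*Bmal1*+/+ libraries included, and 2 counts in iMS*Bmal1*-/- replicate 3. Both groups were thus under the floor. Summed over the iMS*Bmal1*+/+ libraries, 0 counts allow up to 0.542 CPM at the upper end of the 95% exact Poisson interval, and in iMS*Bmal1*-/- muscle the 2 counts gave 0.329 CPM (0.0398 to 1.19). *Wee1* accounted for 100% of the counts of the pair in every iMS*Bmal1*+/+ library and for 80% in iMS*Bmal1*-/- replicate 3.

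*Gm45819*, the unspliced gene just upstream of *Wee1* on the same strand, is of unknown function and was not among the chosen genes. It had 150, 137 and 200 counts in iMS*Bmal1*+/+ libraries, against 33, 35 and 30 in iMS*Bmal1*-/- libraries. All iMS*Bmal1*+/+ values were above all iMS*Bmal1*-/- values, at 73.7 ± 2.70 and 16.5 ± 3.83 CPM (SD, n = 3 each). *Gm45819* fell by 2.17 on the log2 scale (SE 0.19, adjusted p = 1.28e-06 by the Benjamini-Hochberg method in edgeR), lower in 3 of 3 iMS*Bmal1*-/- libraries. Its adjusted p stayed between 1.43e-23 and 6.03e-05 under the 12 other settings tried. *Wee1* counts were 23.3, 40.9 and 31.0% of *Gm45819* counts in iMS*Bmal1*+/+ libraries, against 27.3, 28.6 and 26.7% in iMS*Bmal1*-/- libraries. The mean shares, 31.7 ± 8.79% and 27.5 ± 0.973% (SD, n = 3 each), differed by less than the spread of the iMS*Bmal1*+/+ libraries. Reads that span the gap between the genes were not analysed here, and whether both counts come from 1 RNA was not tested.

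Counts were also divided by the exon length of the gene they are deposited under. With the opposite strand setting this length would be the wrong divisor, and the order below is that of the deposited counts only. In iMS*Bmal1*+/+ muscle, *Gm45819* was highest at 42.1 ± 1.54 CPM per kb (SD, n = 3), followed by *Uts2* at 20.1 ± 1.07 and *Wee1* at 6.81 ± 1.68. *Camta1* was lower at 0.761 ± 0.0554 CPM per kb, *Per3* was at 0.110 ± 0.00778, and *1600010M07Rik* had no counts. The median of the tested genes over all 6 libraries was 7.04 CPM per kb. On this scale *Wee1* was near that median and *Uts2* above it in iMS*Bmal1*+/+ muscle. In iMS*Bmal1*-/- muscle *Gm45819* was again highest at 9.45 ± 2.19 CPM per kb (SD, n = 3). *Uts2* at 3.13 ± 1.95 and *Wee1* at 1.34 ± 0.359 CPM per kb no longer differed beyond their spread, since *Uts2* was at 0.886 in replicate 3. *Camta1* stayed at 0.756 ± 0.0452, and *1600010M07Rik* (0.184 ± 0.319) and *Per3* (0.0373 ± 0.0329) did not differ beyond theirs.

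Around both loci, genes within 100 kb of the outermost ends of the members were counted on either strand. The chromosome 4 window holds 12 other genes, of which 4 passed the filter and 7 had at most 3 counts in every library. *Errfi1*, a feedback inhibitor of the EGF receptor on the plus strand, was the most counted, with 254, 234 and 412 counts in iMS*Bmal1*+/+, against 322, 267 and 308 in iMS*Bmal1*-/- muscle. The genotypes overlapped, with a log2 fold change of 0.14 (SE 0.13). *Vamp3*, a vesicle SNARE that lies upstream of *Per3* on the minus strand 2634 bp away, had 5, 8 and 15 counts in iMS*Bmal1*+/+, against 12, 9 and 6 in iMS*Bmal1*-/- libraries. *Park7* (minus strand) and *Dnajc11* (plus strand) had log2 fold changes of 0.46 (SE 0.35) and 0.33 (SE 0.35). Both moved when 1 library was left out. Among the iMS*Bmal1*+/+ libraries, *Park7* was lowest at 0.25 when replicate 2 was dropped and highest at 0.79 when replicate 3 was, while *Dnajc11* was lowest at 0.02 when replicate 3 was dropped and highest at 0.78 when replicate 1 was. Of these 4 neighbours, 0 were past the threshold in edgeR, where 1.83% of all tested genes were. In edgeR 0 had an unadjusted p under 0.05 (11.9% of all), and DESeq2 and limma each called 0 (1.71 and 1.79% of all).

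The chromosome 7 window holds 11 other genes, of which 3 passed the filter and 1, *Gm45819*, was past the threshold and lower, as were 1.07% of all tested genes. *Ipo7*, an importin upstream of *Wee1* on the plus strand, had 27, 33 and 26 counts in iMS*Bmal1*+/+, against 33, 32 and 51 in iMS*Bmal1*-/- libraries. These overlap, and its log2 fold change of 0.53 (SE 0.28) had a Benjamini-Hochberg adjusted p of 0.484 in edgeR. *AA474408*, on the minus strand, had 45, 38 and 42 counts in iMS*Bmal1*+/+, against 33, 38 and 46 in iMS*Bmal1*-/- libraries, with a log2 fold change of 0.02 (SE 0.25). Among the 8 neighbours that did not pass the filter, *Zfp143* (plus strand) had from 2 to 11 counts per library. Across both windows the tested neighbours had a median log2 fold change of 0.14, beside -0.00087 for all 6831 genes.

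Summed over all annotated genes by strand, the chromosome 7 window had 223, 231 and 291 counts under genes of the plus strand in iMS*Bmal1*+/+, against 85, 86 and 97 in iMS*Bmal1*-/- libraries. Counts under genes of the minus strand were 49, 38 and 47 for iMS*Bmal1*+/+, against 34, 41 and 53 for iMS*Bmal1*-/-, and overlapped. Genes annotated on the plus strand thus held 84.6 ± 2.31% (SD, n = 3) of the window's counts in iMS*Bmal1*+/+, against 67.9 ± 3.39% in iMS*Bmal1*-/- muscle. This difference comes from *Gm45819* and from *Wee1*, which was chosen on this comparison. Without them the plus-strand genes had 38, 38 and 29 counts in iMS*Bmal1*+/+, against 43, 41 and 59 in iMS*Bmal1*-/- libraries. On chromosome 4 genes of the plus strand held 87.2 ± 0.691% and 86.3 ± 1.74% (SD, n = 3 each), mostly through *Errfi1*, and the genotypes overlapped. With the opposite strand setting these would be shares of minus-strand RNA, which was not tested.

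**Figure D2:**
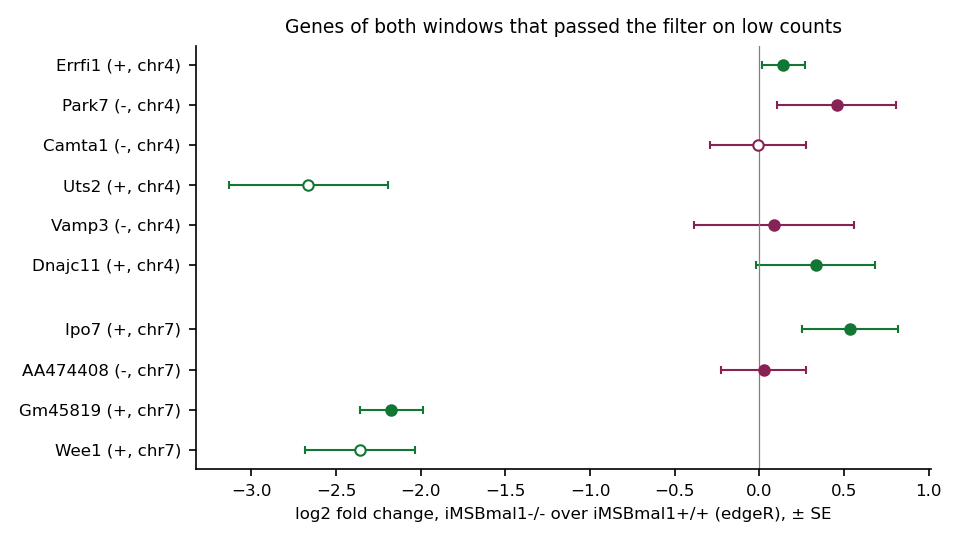
Fitted log2 fold change (iMS*Bmal1*-/- over iMS*Bmal1*+/+) with its SE for the 10 genes of both windows that passed the filter on low counts, by position, in green for the plus strand and purple for the minus strand. Open circles are members, shown without a test, and *Gm45819* (-2.17) is the filled circle set apart from 0.

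The genes whose pattern was most like that of *Uts2*, by Pearson correlation of log2 CPM over the 6 libraries, were *Tor1b* (r = 0.993), *Nasp* (0.984), *Gm43012* (0.980), *Gm7265* (0.979) and *mt-Ty* (0.978). For *Wee1* they were *Gm6684* (r = 0.997), *Appl1* (0.991), *Gm16268* (0.984), *Gm10197* (0.983) and *Baz2a* (0.980), with *Gm45819* in rank 6 at 0.980. *Uts2* and *Wee1* correlated with each other at r = 0.930, and *Camta1* correlated with them at 0.232 and -0.104. These values include the difference between genotypes. The size of that difference was much smaller in several of these genes, with log2 fold changes of -0.45 for *Tor1b* and -0.37 for *Appl1*.

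Other clock genes place *Per3* among its partners. Of 23 listed clock genes, 9 were tested, *Per3* not among them, with a median log2 fold change of -0.10, and 1 of them was past the threshold and higher, as were 0.761% of all tested genes. DESeq2 and limma each called 1 (1.71 and 1.79% of all), and 2 had an unadjusted p under 0.05 in edgeR (11.9% of all). *Nr1d1*, which encodes the repressor REV-ERBα, had 281, 258 and 382 counts in iMS*Bmal1*+/+, against 498, 372 and 393 in iMS*Bmal1*-/- muscle. The count under its name was higher in 3 of 3 iMS*Bmal1*-/- libraries, with a log2 fold change of 0.58 (SE 0.11, Benjamini-Hochberg adjusted p = 0.00965 in edgeR). Its adjusted p was 0.0628 without iMS*Bmal1*-/- replicate 1 and 0.0780 without replicate 2, within a range of 0.00202 to 0.0780 over the 12 alternatives. *Per1* and *Per2*, the paralogs of *Per3*, had from 1 to 4 and from 0 to 3 counts per library, and *Cry1* had 1 count in 1 library. Of the 10 tested genes that face clock genes on the opposite strand, 3 were past the threshold, all lower, as were 1.07% of all tested genes. DESeq2 and limma each called 3 (1.71 and 1.79% of all), and 5 had an unadjusted p under 0.05 in edgeR (11.9% of all). *Sphk2*, whose exons face *Rpl18* as well as the PAR bZIP gene *Dbp*, had 363, 343 and 564 counts in iMS*Bmal1*+/+, against 139, 84 and 113 in iMS*Bmal1*-/- libraries. Its log2 fold change was -1.79 (SE 0.13, adjusted p = 2.40e-07 in edgeR), while the log2 fold change of *Dbp* was -0.50 (SE 0.26, adjusted p = 0.472). *Thra*, which faces *Nr1d1*, had a log2 fold change of -0.92 (SE 0.11, adjusted p = 6.99e-05 in edgeR). For *0610040F04Rik*, which faces the repressor gene *Bhlhe40*, it was -1.33 (SE 0.13, adjusted p = 6.28e-06 in edgeR). All 3 were lower in 3 of 3 iMS*Bmal1*-/- libraries. Of the 11 listed clock genes with a facing gene, 9 had less signal per kb than each facing gene in every library. The exceptions were *Tef* and *Nr1d1*, the latter with *Thra* higher in 3 of the 6 libraries. With the opposite strand setting, the count under each of these names would be RNA of the other strand, which was not tested. *Uts2* and *Wee1* face no exon of the other strand in this annotation, so no count of theirs can be set beside a facing gene in the same way.

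*Wee1* acts with other kinases and phosphatases at the entry to mitosis. Of 18 listed genes of this step, 5 besides *Wee1* were tested, with a median log2 fold change of -0.20. Of the 5, 0 were past the threshold in edgeR, where 1.83% of all tested genes were. In edgeR 0 had an unadjusted p under 0.05 (11.9% of all), and DESeq2 and limma each called 0 (1.71 and 1.79% of all). *Pkmyt1*, the related kinase that also inhibits CDK1, had 35, 34 and 21 counts in iMS*Bmal1*+/+, against 23, 17 and 17 in iMS*Bmal1*-/- muscle, with a log2 fold change of -0.57 (SE 0.33). *Cdk1*, *Ccnb1*, *Cdc25c* and *Plk1* had 0 counts in every library. The 3 tested genes that face this list gave 0 calls in edgeR, DESeq2 and limma (1.83, 1.71 and 1.79% of all). At an unadjusted p under 0.05 in edgeR there were 0 (11.9% of all). For satellite and dividing cells, 0 of 6 markers passed the filter, *Top2a* had 0 counts in every library, and the most counted, *Mki67*, had 28 counts over the 6 libraries. The summed level of these 6 markers was 4.48, 5.16 and 6.45 CPM in iMS*Bmal1*+/+ and 3.92, 4.79 and 4.29 CPM in iMS*Bmal1*-/- libraries. Because the strand setting is not known, counts of 0 in these lists do not show that the RNA or dividing cells were absent.

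*Uts2* has a paralog, *Uts2b*, with 5, 11 and 37 counts in iMS*Bmal1*+/+, against 19, 11 and 17 in iMS*Bmal1*-/- libraries. These overlap, and its log2 fold change was -0.01 (SE 0.44). It was the only other tested gene of 5 listed for urotensin and somatostatin peptides. There were 0 calls in edgeR, DESeq2 and limma, beside 1.83, 1.71 and 1.79% of all tested genes. At an unadjusted p under 0.05 in edgeR there were 0 (11.9% of all). *Uts2r*, which encodes the receptor of urotensin II, had from 0 to 6 counts per library, and *Sst* had 0. *Camta2*, the paralog of *Camta1*, had 29, 31 and 22 counts in iMS*Bmal1*+/+, against 33, 22 and 51 in iMS*Bmal1*-/- libraries. The genotypes overlapped, with a log2 fold change of 0.45 (SE 0.31, Benjamini-Hochberg adjusted p = 0.639 in edgeR).

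*Uts2* is known from motor neurons, and the muscle also holds cells other than fibers. Motor neuron markers were nearly without counts, with *Slc18a3*, *Slc5a7*, *Isl1*, *Mnx1* and *Prph* at 0 in every library and *Chat* at 1 count in 1 library. Of 7 Schwann cell markers, 0 passed the filter, and their summed level was 6.46, 8.26 and 8.73 CPM in iMS*Bmal1*+/+ and 19.1, 7.19 and 7.63 CPM in iMS*Bmal1*-/- libraries, led by *S100b*. The single tested gene facing them, *Gm15541*, had a log2 fold change of 1.20 (SE 0.38, adjusted p = 0.144 in edgeR). It was at an unadjusted p under 0.05 in edgeR (11.9% of all tested genes were), and DESeq2 and limma did not call it. Of 7 endothelial and smooth muscle markers, the cells of vessels on which urotensin II acts, 4 were tested. Calls numbered 0 in edgeR, DESeq2 and limma (1.83, 1.71 and 1.79% of all tested genes). At an unadjusted p under 0.05 in edgeR there were 0 (11.9% of all). The summed level of the 7 markers was 99.95, 89.8 and 101 CPM in iMS*Bmal1*+/+ and 85.7, 101 and 68.2 CPM in iMS*Bmal1*-/- libraries, with *Tek* the most counted. The 2 tested genes facing them gave 0 calls as well, beside the same shares. With the opposite strand setting, a count near 0 under a marker's name would not show that its RNA or its cells were absent. The part of these cells in the counts of *Uts2* and *Wee1* was not tested.

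Markers of skeletal muscle, led by *Ttn*, had a summed level of 11709, 15053 and 13136 CPM in iMS*Bmal1*+/+ and 15744, 16415 and 18590 CPM in iMS*Bmal1*-/- libraries. *Myh7* had 0 or 1 count in each library. Of 12 markers, 11 were tested, with a median log2 fold change of 0.38, and 2 were past the threshold and higher, as were 0.761% of all tested genes. DESeq2 called 3 and limma 2 (1.71 and 1.79% of all), and 9 had an unadjusted p under 0.05 in edgeR (11.9% of all). *Mylpf*, the fast regulatory light chain, had a log2 fold change of 0.85 (SE 0.14, adjusted p = 0.00241 in edgeR), and *Pvalb* (parvalbumin) of 0.90 (SE 0.17, adjusted p = 0.00700 in edgeR), both higher in 3 of 3 iMS*Bmal1*-/- libraries. The genes facing these markers held between 270897 and 304722 CPM in sum per library. Of 7 tested facing genes, 1 was past the threshold, *Myhas*, which faces *Myh1*, with a log2 fold change of -0.60 (SE 0.15, adjusted p = 0.0447 in edgeR), and 1.07% of all tested genes were lower. DESeq2 called 1 and limma 0 of the 7 (1.71 and 1.79% of all), and 2 had an unadjusted p under 0.05 in edgeR (11.9% of all). That call was lost without any 1 of 5 libraries, with an adjusted p of 0.229 without iMS*Bmal1*-/- replicate 3 and a range of 4.15e-09 to 0.229 over the 12 alternatives.

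Promoter sequences were taken from RefSeq (GRCm38.p6) as 250 bases before and 50 bases after a start of the gene, and 4 of the 5 members had an entry in the promoter table. *Wee1* had none there, so its promoter was not searched. For *Per3* that start is at 151044665, inside the outer end of its RefSeq model at 151044707, and positions are counted from it. *Per3* and *Uts2* are shown because they lie next to each other on opposite strands and one of them is a clock gene. The E-box CACGTG had 0 matches in the promoters of *Per3*, *Uts2*, *Camta1* and *1600010M07Rik* on either strand, and is found in 7.17% of all 32544 promoters of this length. The related words CACGTT and AACGTG had 0 matches in the 4 promoters (4.71% of all promoters hold 1 of them). The D-box words TTATGTAA or TTACGTAA, searched on both strands, matched the *Per3* promoter at 2 positions, -205 and -158 from the start, and 1.05% of all promoters hold at least 1 match and 0.0246% at least 2. The core of the ROR response element, AGGTCA, had 1 match in the *Uts2* promoter at -58 on the printed strand and is in 16.2% of all promoters on either strand. GC content was 73.3% for *Per3*, higher than in 94.5% of promoters, and 43.3% for *Uts2*, higher than in 17.2%. In the following sequences, written 5′ to 3′ on the strand of the gene, capitals mark the D-box matches of *Per3* (chr4:151044616-151044915, minus strand) and the AGGTCA match of *Uts2* (chr4:150996847-150997146, plus strand). A match describes the letters of the window and is no measure of binding.
Per3: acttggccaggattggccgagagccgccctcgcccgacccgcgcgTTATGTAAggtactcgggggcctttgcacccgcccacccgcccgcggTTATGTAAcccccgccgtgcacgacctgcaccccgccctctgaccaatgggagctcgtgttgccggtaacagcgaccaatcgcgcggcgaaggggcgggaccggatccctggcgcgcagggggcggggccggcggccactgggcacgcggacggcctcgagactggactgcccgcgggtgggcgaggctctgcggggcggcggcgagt
Uts2: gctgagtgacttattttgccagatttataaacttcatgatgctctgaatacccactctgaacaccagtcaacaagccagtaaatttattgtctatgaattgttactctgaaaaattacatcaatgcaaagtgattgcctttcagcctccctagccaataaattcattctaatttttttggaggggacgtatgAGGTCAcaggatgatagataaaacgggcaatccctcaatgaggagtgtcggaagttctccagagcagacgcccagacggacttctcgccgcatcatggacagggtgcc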

How the data were processed

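RNA-seq counts per gene were analysed in the TA muscles of 6 mice, 3 for each genotype. Reads from stranded, rRNA-depleted libraries were mapped to mm10 with HISAT2 and counted with HTSeq by the authors, per the submitters' processing notes. The versions, the annotation release and the strand setting are not given in the sources used here. The deposited raw counts are whole numbers of reads per Ensembl gene. The deposited normalized signal is the same count over a DESeq2 size factor, 1 for each library (0.828 to 1.26), with differences of at most 5.5e-10. Columns were assigned by their sample labels, with 0 left over. Gene models came from GENCODE release 21 (GRCm38), in which 147 of 52636 identifiers were not found, and promoters from RefSeq.

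Counts were TMM-normalized and genes filtered on low counts by genotype in edgeR 4.0.16 (R 4.3.3). The quasi-likelihood test compared genotypes, two-sided, with Benjamini-Hochberg adjustment over all 6831 genes tested and a threshold of 0.05. Genes were named by rule: the members, neighbours within 100 kb that passed the filter, genes of the lists past the threshold, genes facing list genes on the opposite strand past the threshold, and the 5 genes most correlated with *Uts2* or *Wee1*. Others were named after their values were seen. The members and lists were chosen with earlier results of these data known. The lists were clock genes, control of G2/M, urotensin and somatostatin peptides, and markers of skeletal muscle, motor neurons, Schwann cells, endothelium and smooth muscle, and satellite and dividing cells. A further list is not reported here. Alternatives were DESeq2 1.42.0, no filter, upper-quartile normalization, a minimum of 10 counts per gene in every library, limma 3.58.1 on log2 of the authors' normalized values plus 1, the replicate number as a block, each library left out in turn, and, for promoters, additional E-box words. The tests were tried on simulated counts first. Python scripts used numpy 2.4.6, pandas 2.3.3 and scipy 1.17.1.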

Additional observations from a re-analysis of the deposited data

How the results depend on the processing

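The log2 fold change of *Uts2* stayed between -2.96 and -2.22 and that of *Wee1* between -2.57 and -2.19 under the 11 alternatives that could fit them (with a minimum of 10 counts in every library neither was kept). Both genes were chosen on these same 6 libraries and passed the filter through their iMS*Bmal1*+/+ counts. Their ranges are therefore a description and no support for a difference. *Camta1* ranged from -0.07 to 0.04 over 12 alternatives, below 0 in 7. *Gm45819* was past the threshold in all 12. Additional E-box words gave 0 matches. The deviations of same-numbered libraries from the mean log2 CPM of their genotype correlated at -0.0357, -0.0149 and -0.0298. These values gave no sign that the numbers pair the mice.

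With the replicate block, 220 genes were past the threshold instead of 125, 119 lower and 101 higher. Under the replicate block the counts were 5 for genes facing clock genes, 6 for skeletal muscle markers, 2 for their facing genes and 1 for the gene facing Schwann cell markers. Without the filter on low counts, 219 genes were past it (136 lower, 83 higher), with 5 facing clock genes, 4 skeletal muscle markers and 2 facing those. Leaving out 1 library gave 60 to 109 genes, 32 to 61 lower and 26 to 54 higher, with fewer samples in each fit. Without iMS*Bmal1*-/- replicate 1, 66 genes were past the threshold (40 lower), without replicate 2 there were 60 (32 lower), and without replicate 3 the lower genes numbered 46. In the same fits the calls were 0 to 1 for clock genes, 2 to 4 for skeletal muscle markers (4 without iMS*Bmal1*+/+ replicate 2), 0 to 1 for their facing genes and 0 to 1 for the gene facing Schwann cell markers (1 without iMS*Bmal1*+/+ replicate 2). Facing genes of skeletal muscle markers gave 0 calls with a minimum of 10 counts, with limma and with upper-quartile normalization. The cause of these changes was not tested.

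Among neighbours near 0, the sign turned for *Vamp3* (-0.16 to 0.43 with 1 library left out) and for *AA474408* (-0.0163 with limma, -0.0125 without the filter, and -0.11 to 0.21 with 1 library left out). With 1 library left out, the log2 fold change ranged from 0.25 to 0.79 for *Park7*, from 0.02 to 0.78 for *Dnajc11*, from 0.07 to 0.26 for *Errfi1* and from 0.32 to 0.73 for *Ipo7*. *Per3* and *1600010M07Rik* had 3 counts or fewer in every library, and no fold change is given for them.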
